A study of Mus musculus with 6 samples.

Results

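The angiopoietin and Tie receptor genes *Tek*, *Tie1*, *Angpt1*, *Angpt2* and *Ptprb* were followed in RNA of the cardiac side population (SP), the heart cells that pump out the DNA dye Hoechst. They were taken by symbol from the 50600 genes of the count table, and all 5 were among the 13475 protein-coding genes tested. The 2 groups were SP cells of C57BL/6NRj mice (wt) and of C57BL/6Flt3Ltml/mx mice (flt3L-/-), which carry a targeted allele of the Flt3 ligand gene, both at 8 to 12 weeks of age and with no treatment named. Each of the 6 libraries held RNA of sorted cells pooled from 4 mice. A wt and an flt3L-/- library were made on each of 3 sorting dates, 22 August 2016 (pair 1), 24 August 2016 (pair 2) and 29 August 2017 (pair 3), so n = 3 per group. The methods describe sorting either the complete SP or its Sca1+/CD31- fraction. The labels give the source as cardiac side population, and the study describes the sequenced cells as freshly isolated SP cells. Neither names the Sca1+/CD31- fraction for these libraries.

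*Tek* encodes Tie2, a receptor tyrosine kinase of endothelial cells, and *Tie1* encodes a related receptor that binds no angiopoietin strongly and modulates Tie2. *Angpt1* encodes the activating ligand, which perivascular and other mesenchymal cells release and which keeps vessels quiescent, whereas *Angpt2* encodes a ligand of endothelial origin that can block or activate Tie2 depending on the setting. *Ptprb* encodes VE-PTP, an endothelial phosphatase that removes phosphate from Tie2 and associates with VE-cadherin. Activated Tie2 signals through PI3 kinase and Akt, which keeps FoxO transcription factors out of the nucleus.

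Levels are given as CPM, the counts per 1000000 of the TMM-scaled total of the tested genes, and levels of different genes are compared as RPKM, the CPM per kilobase of exon. Total counts were 24370913 to 31145519 per library, and 3 counts, taken as the floor, correspond to 0.109 to 0.127 CPM. This floor covers counting error only. *Flt3l* (ENSMUSG00000110206), the targeted gene, had 8.67, 10.8 and 12.1 CPM in wt (pairs 1, 2 and 3), and its CPM under the flt3L-/- label was 13.6, 12.4 and 14.4. Its reads were thus not lower under the flt3L-/- label, and 22.1% of its exon bases are shared with another gene. The SP transporter gene *Abcg2* had 147 to 274 CPM and *Ly6a*, which encodes Sca1, had 523 to 1791 CPM over the 6 libraries. The endothelial gene *Pecam1*, which encodes CD31, had 873 to 1524 CPM. The fibroblast gene *Gsn* had 6581 to 26342 CPM, so both endothelial and mesenchymal transcripts were abundant.

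The expression of Tie2 was measured by PCR in other experiments of the study, on Sca1+/CD31- SP cells expanded in culture and not freshly sorted. The libraries here are not labelled as that fraction. In the cultured cells the study reported lower endothelial lineage markers for flt3L-/-, and Tie2 could be induced in endothelial differentiation medium. The primers mark the stretch of *Tek* that was amplified there. Both were found in coding exons of *Tek* on chromosome 4 of GRCm38, the forward primer in exon 5 at chr4:94804380-94804398 and the reverse primer in exon 6 at chr4:94804823-94804841.
forward primer, 5′ to 3′: tgccctcctgggtttatgg
reverse primer, 5′ to 3′: ggtcctgccaaatgtgtgc
They span an expected product of 66 bases and occur in 3 of the 4 annotated *Tek* transcripts and in the transcripts of 0 other genes. Promoter sequences of RefSeq (GRCm38.p6, 250 bases before to 50 bases after the start) were at hand for 2 members, *Tek* at chr4:94739039-94739338 on the plus strand and *Tie1* at chr4:118489800-118490099 on the minus strand. They are shown because factors of the ETS and GATA families, whose genes are described below, are known to act on the Tie genes. Capitals mark the ETS core GGAA on either strand (as GGAA or TTCC).
*Tek*: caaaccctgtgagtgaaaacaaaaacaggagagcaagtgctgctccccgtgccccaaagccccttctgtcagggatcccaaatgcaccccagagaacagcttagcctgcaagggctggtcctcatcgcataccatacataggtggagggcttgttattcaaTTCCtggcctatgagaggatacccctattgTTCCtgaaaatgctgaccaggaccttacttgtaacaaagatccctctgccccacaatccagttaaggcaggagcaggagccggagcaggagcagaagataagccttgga
*Tie1*: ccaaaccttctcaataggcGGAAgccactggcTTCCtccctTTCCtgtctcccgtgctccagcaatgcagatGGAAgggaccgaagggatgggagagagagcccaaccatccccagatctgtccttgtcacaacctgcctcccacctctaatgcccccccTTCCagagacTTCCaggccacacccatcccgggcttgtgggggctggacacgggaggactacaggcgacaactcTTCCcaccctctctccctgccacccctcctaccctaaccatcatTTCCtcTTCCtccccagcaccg
The *Tek* window held 2 ETS cores, and 84.6% of 32851 promoters held at least as many, so this number was ordinary. The *Tie1* window held 9 ETS cores, and 1.59% of the promoters held at least as many. At least 1 ETS core was present in 96% of all promoters, with a median of 3. The GATA core (GATA or TATC) was found 2 times in the *Tek* window, a number that 28.7% of promoters reached, and 0 times in that of *Tie1*, where 57.9% of all promoters held at least 1. These letters are matches and not evidence of a bound factor.

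Per length, the receptors and the phosphatase stood far above the ligands. The mean level over the 6 libraries was 205 RPKM for *Tie1*, 137 RPKM for *Tek*, 102 RPKM for *Ptprb*, 11.3 RPKM for *Angpt2* and 5.14 RPKM for *Angpt1*. Only 1.22% of the tested genes had a higher mean RPKM than *Tie1*, and the share was 1.97% for *Tek* and 2.78% for *Ptprb*. By contrast, 30.6% of the tested genes had a higher RPKM than *Angpt2* and 50.9% a higher RPKM than *Angpt1*. The 4 neighbouring steps of this order are described below within each library, with no test, since the order was taken from the same libraries.

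The level of *Tie1* exceeded that of *Tek* in 6 of 6 libraries, 1.19 to 1.74 times, with a mean log2 ratio of 0.59 ± 0.19 (SD, n = 6 libraries). *Tek* exceeded *Ptprb* in 6 of 6 libraries, 1.08 to 2.14 times (mean log2 ratio 0.42 ± 0.38, SD), but with the length of the longest transcript in place of all exons it did so in 4 of 6, so these neighbours are not clearly ordered. *Ptprb* exceeded *Angpt2* in 6 of 6 libraries, 3.76 to 14.3 times (mean log2 ratio 3.24 ± 0.70, SD). *Angpt2* was above *Angpt1* in 5 of 6 libraries, with ratios of 0.618 to 12.1, and the mean log2 ratio of 1.42 was about as large as its spread (SD 1.41). The wt library of pair 1 was the one with more *Angpt1*. These genes belong to different cell types, and in bulk RNA fewer cells of a type and less RNA per cell cannot be told apart.

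**Figure D1:**
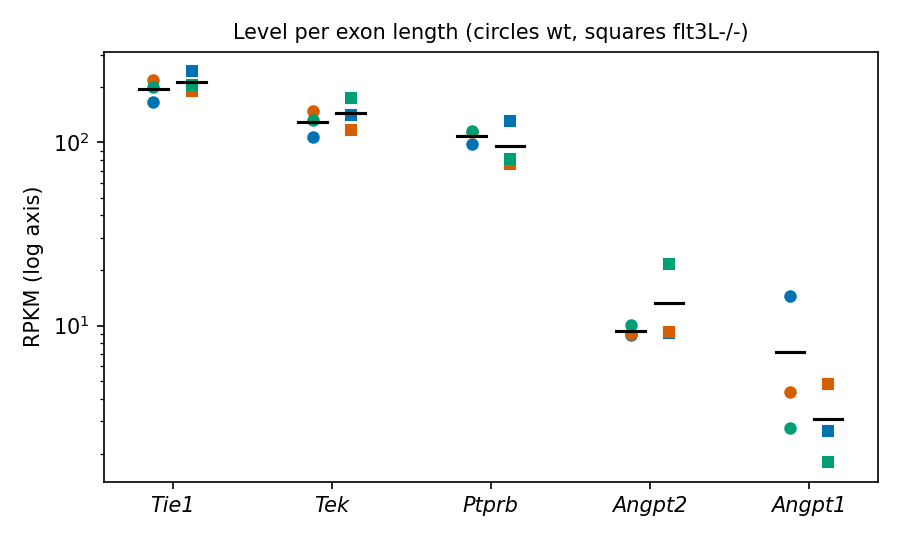
Level of the 5 genes per kilobase of exon (RPKM, log axis) in each library, with circles for wt, squares for the libraries labelled flt3L-/-, colours for the sorting date and bars for the group means (n = 3). *Tie1*, *Tek* and *Ptprb* lie between 76.4 and 245 RPKM in every library, and *Angpt1* spreads most, from 1.79 to 14.5 RPKM.

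The comparison of the libraries labelled flt3L-/- with wt asks how the SP transcriptome of mice with the targeted Flt3 ligand allele differs. Differences are log2 fold changes from edgeR's quasi-likelihood test with the sorting date as a covariate, positive where the libraries labelled flt3L-/- were higher, and p-values were adjusted with the Benjamini-Hochberg method over all 13475 genes. At an adjusted p under 0.05, 0 of the 5 genes were called, and the share over all genes was 0%. At an unadjusted p under 0.05 the count was likewise 0 of 5, where 3.59% of all genes passed (1.11% higher and 2.49% lower), and DESeq2 called 0 of the 5. None of the 5 had groups without overlap, a property of 6.45% of all genes. The difference had 1 sign in all 3 pairs for 1 of the 5 genes, *Angpt2*, against 25.7% of all genes. Each p-value sets the genotype difference against the variation between pooled sorts that the date term leaves. Variation between single mice is not seen in pools of 4.

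*Tek* (ENSMUSG00000006386, chromosome 4 of GRCm38, 94739289 to 94874976, plus strand) is the receptor on which both ligands act. Its level was 505, 697 and 628 CPM in wt (pairs 1, 2 and 3) and 665, 550 and 821 CPM under the flt3L-/- label. The groups overlapped, since the flt3L-/- library was higher in pairs 1 and 3 and lower in pair 2. The means were 610 ± 97.4 CPM (SD, n = 3) and 679 ± 136 CPM (SD, n = 3). The log2 fold change was 0.15 (standard error 0.21, 95% interval −0.39 to 0.69, edgeR adjusted p = 0.974). *Tek* had the second smallest spread of the 5 genes, with 1.63 times between its lowest and highest library.

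*Tie1* (ENSMUSG00000033191, chromosome 4, 118471191 to 118490061, minus strand), the co-receptor, had 816, 1079 and 992 CPM in wt and 1206 (pair 1), 938 (pair 2) and 1017 CPM (pair 3) under the flt3L-/- label. The lowest and the highest value were the 2 libraries of pair 1, and pair 3 was nearly level. Its means were 962 ± 134 CPM in wt and 1053 ± 137 CPM (SD, n = 3 each) under the flt3L-/- label. The log2 fold change was 0.13 (standard error 0.20, 95% interval −0.40 to 0.66, edgeR adjusted p = 0.977), and without pair 1 it turned to −0.08. *Tie1* varied least of the 5 genes, 1.48 times between the lowest and the highest library. The ratio of *Tie1* to *Tek* in RPKM was 1.55, 1.48 and 1.51 in wt and 1.74, 1.63 and 1.19 in the libraries labelled flt3L-/-, and pair 3 went against pairs 1 and 2.

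*Ptprb* (ENSMUSG00000020154, chromosome 10, 116275523 to 116389535, plus strand), the phosphatase of Tie2, had 1299.7, 1513 and 1545 CPM in wt. In the libraries labelled flt3L-/- it had 1738, 1019 and 1085 CPM, so pair 1 was higher and pairs 2 and 3 were lower. The means were 1452 ± 133 CPM (SD, n = 3) and 1281 ± 398 CPM (SD, n = 3), with a log2 fold change of −0.22 (standard error 0.25, 95% interval −0.89 to 0.44, edgeR adjusted p = 0.973). Without pair 1 the log2 fold change was −0.54 (unadjusted p = 0.0373, edgeR adjusted p = 0.919), and it was −0.07 without pair 2 and −0.08 without pair 3. The amount of phosphatase transcript per receptor transcript, as the RPKM ratio of *Ptprb* to *Tek*, was 0.909, 0.767 and 0.869 in wt. It was 0.923, 0.655 and 0.467 in the libraries labelled flt3L-/-, where the lowest value is that of pair 3.

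*Angpt1* (ENSMUSG00000022309, chromosome 15, 42424723 to 42676977, minus strand) encodes the activating ligand and varied most of the 5 genes. In wt its level was 75.3, 22.5 and 14.3 CPM (pairs 1, 2 and 3), which are 1937, 580 and 385 counts. Under the flt3L-/- label it was 13.8, 25.1 and 9.34 CPM, or 378, 592 and 236 counts. The wt library of pair 1 stood above the other 5, the groups overlapped, and the highest library was 8.06 times the lowest. Group means were 37.4 ± 33.1 CPM in wt and 16.1 ± 8.14 CPM (SD, n = 3 each) under the flt3L-/- label. Its log2 fold change was −0.95 (standard error 0.55, 95% interval −2.38 to 0.48, edgeR adjusted p = 0.973). Pair by pair the log2 difference was −2.44, 0.16 and −0.61. Leaving out pair 1 gave −0.23, and leaving out pair 2 gave −1.57 (unadjusted p = 0.0270, edgeR adjusted p = 0.592). The antisense gene Gm17473 overlaps 14.2% of the exon bases of *Angpt1*, and because the reads carry no strand the reads of the genes cannot be told apart there. Gm17473 had 24 to 168 counts per library.

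*Angpt2* (ENSMUSG00000031465, chromosome 8, 18690263 to 18741562, minus strand), the ligand of endothelial origin, had 33.0, 33.1 and 37.4 CPM in wt and 33.6, 33.9 and 79.9 CPM under the flt3L-/- label. Of the 6 libraries 5 were nearly level, and the flt3L-/- library of pair 3 stood above them. The means were 34.5 ± 2.53 CPM (SD, n = 3) and 49.1 ± 26.6 CPM (SD, n = 3). Its log2 fold change was 0.38 (standard error 0.27, 95% interval −0.31 to 1.08, edgeR adjusted p = 0.973), and the pairs differed by 0.03, 0.04 and 1.09. Leaving out pair 3 gave 0.03.

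**Figure D2:**
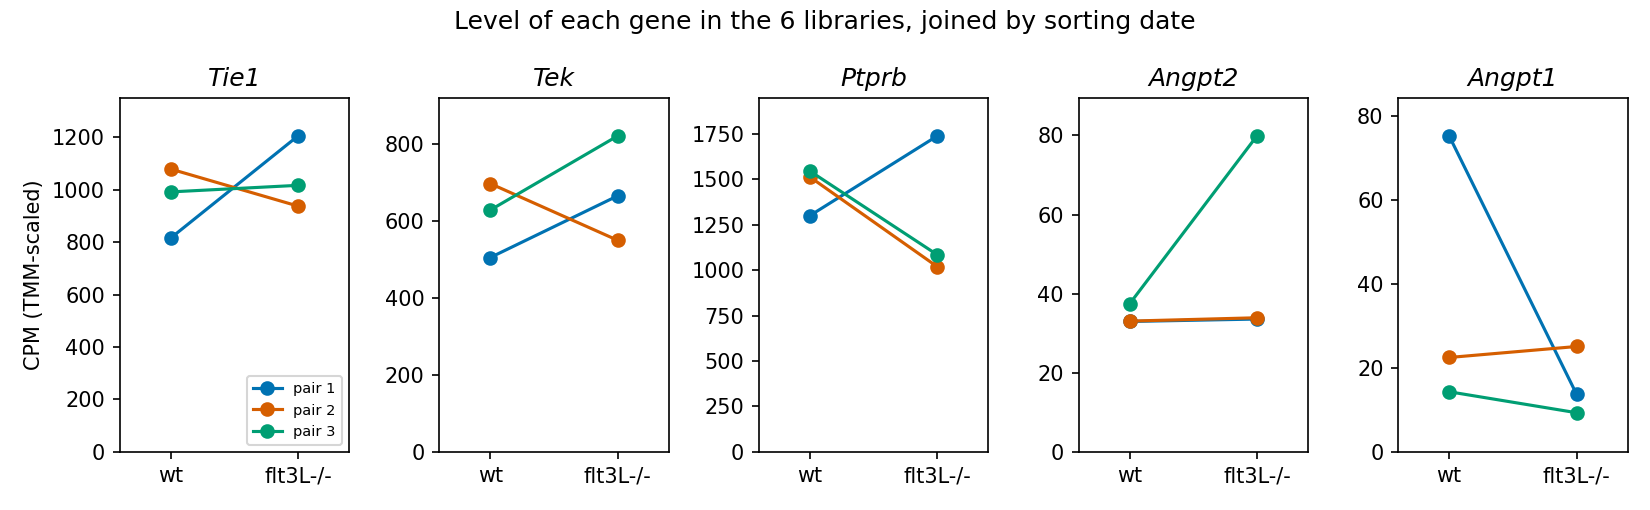
Level of each gene in CPM by group and sorting date, with lines joining the 2 libraries of a pair. *Angpt2* is level in pairs 1 and 2 and reaches 79.9 CPM in the flt3L-/- library of pair 3, and *Angpt1* is highest in the wt library of pair 1 with 75.3 CPM.

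**Figure D3:**
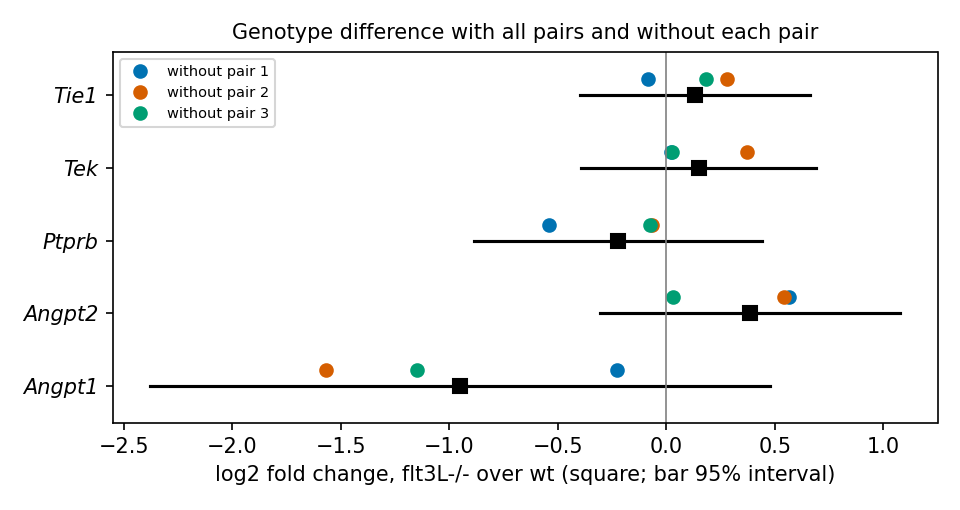
Log2 fold change of the 5 genes (square, bar for the 95% interval, n = 3 pairs) and the same value without each pair (coloured points). All 5 intervals include 0, and that of *Angpt1* is the widest, from −2.38 to 0.48.

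The library of pair 3 labelled flt3L-/- had the highest level of 8 of the 14 endothelial markers listed below and the lowest level of 2 (*Cdh5* and *Vwf*), while the other 4 (*Kdr*, *Flt1*, *Eng* and *Ptprm*) lay within the range of the other 5 libraries. The tight junction gene *Cldn5* had 212 CPM there and 57.3 to 78.2 CPM in the other 5 libraries. *Apln*, which encodes the peptide apelin, had 27.2 CPM there against 8.94 to 13.2 CPM. The von Willebrand factor gene *Vwf* had 87.7 CPM there and 201 to 232 CPM in the other 5. *Cldn5* and *Apln* were chosen for this statement after their values were seen. How many of all tested genes were highest or lowest in this library was not counted, so the marker counts have no background share beside them.

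The balance of the ligands was compared as the RPKM ratio of *Angpt2* to *Angpt1*, which is free of library scaling. It was 0.618, 2.07 and 3.68 in the wt libraries and 3.44, 1.90 and 12.1 in the libraries labelled flt3L-/-. The ratio was higher under the flt3L-/- label in pairs 1 and 3 and slightly lower in pair 2. The log2 differences were 2.48, −0.12 and 1.71, with a mean of 1.36 (SD 1.34, n = 3 pairs) and an exact two-sided permutation p = 0.5 within dates. With 3 pairs this exact test cannot go below p = 0.25. In pair 1 the difference lay in *Angpt1*, since *Angpt2* differed by 0.03 on the log2 scale, whereas in pair 3 *Angpt2* differed by 1.09 and *Angpt1* by −0.61.

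The levels were next set against markers of the cell types in the sort. The summed level of 14 endothelial markers was 9304, 11074 and 11059 CPM in wt and 12100, 9201 and 11610 CPM under the flt3L-/- label, with 0 of 14 passing an unadjusted p under 0.05 and a median log2 fold change of 0.11. Relative to the mean log2 level of these markers, *Tek* differed by 0.04 and *Tie1* by 0.02 on average, with exact permutation p = 1 and p = 0.75 (n = 3 pairs). *Angpt2* differed by 0.27 relative to the markers, with −0.40, 0.26 and 0.96 in pairs 1, 2 and 3 (exact permutation p = 0.75). *Ptprb* relative to the endothelial markers was lower in 3 of 3 pairs, by −0.01, −0.35 and −0.64 (mean −0.33, SD 0.32, exact permutation p = 0.25, the smallest these pairs allow). Against the summed CPM of the markers it was lower in 2 of 3 pairs, with differences of 0.04, −0.30 and −0.58 (exact permutation p = 0.5). The 3 differences of *Tek* lay between −0.12 and 0.26 and those of *Tie1* between −0.09 and 0.13.

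The 11 mural cell markers mark pericytes and smooth muscle cells. Of these, 2 (*Abcc9* and *Myh11*) passed an unadjusted p under 0.05, both lower, beside 2.49% of all genes. The median log2 fold change of the 11 was −0.40, against 0.00 over all genes. It ranged from −0.88 (*Abcc9*) to 0.52 (*Des*), so the markers did not move together. Their summed level was 584 to 1035 CPM in wt and 539 to 779 CPM under the flt3L-/- label. *Mcam*, with a log2 fold change of 0.30, held 242 of the 539 CPM in the flt3L-/- library of pair 3. Relative to these markers *Angpt1* differed by −2.03, −0.03 and −0.01 (mean −0.69, SD 1.16, exact permutation p = 0.25), so the difference lay in pair 1. Against their summed CPM it was lower in 2 of 3 pairs (−2.04, 0.03 and −0.18, exact permutation p = 0.5). Of the 9 fibroblast markers, 3 collagen genes (*Col1a1*, *Col1a2* and *Col3a1*) passed an unadjusted p under 0.05, all lower, beside 2.49% of all genes. The study already reported collagen gene sets as lower from these same libraries, so these 3 add no independent evidence. The median log2 fold change of the 9 was −0.65. The summed fibroblast level was 44338, 29608 and 22174 CPM in wt and 21934, 33451 and 10206 CPM under the flt3L-/- label.

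This sum ranked the 6 libraries in the same order as *Angpt1*. Most of the sum came from *Gsn* and *Dcn*, with 26342 and 10551 of the 44338 CPM in the wt library of pair 1. Both had this order themselves, so the sum and these genes are not separate observations. Other markers differed, such as *Col3a1*, which was highest in the wt library of pair 2 (2552 CPM). In all, 3 of the 9 fibroblast markers shared the order of *Angpt1*, beside 0 of 11 mural markers and 0 of 14 endothelial markers. Among all genes tested, 145 (1.08%) had this library order. Relative to the fibroblast markers, a comparison added after the values were seen, *Angpt1* differed by −1.42, 0.13 and 0.73 in pairs 1, 2 and 3 (mean −0.19, SD 1.11, exact permutation p = 1). The part of the cell mixture in the *Angpt1* difference was not tested beyond these values.

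**Figure D4:**
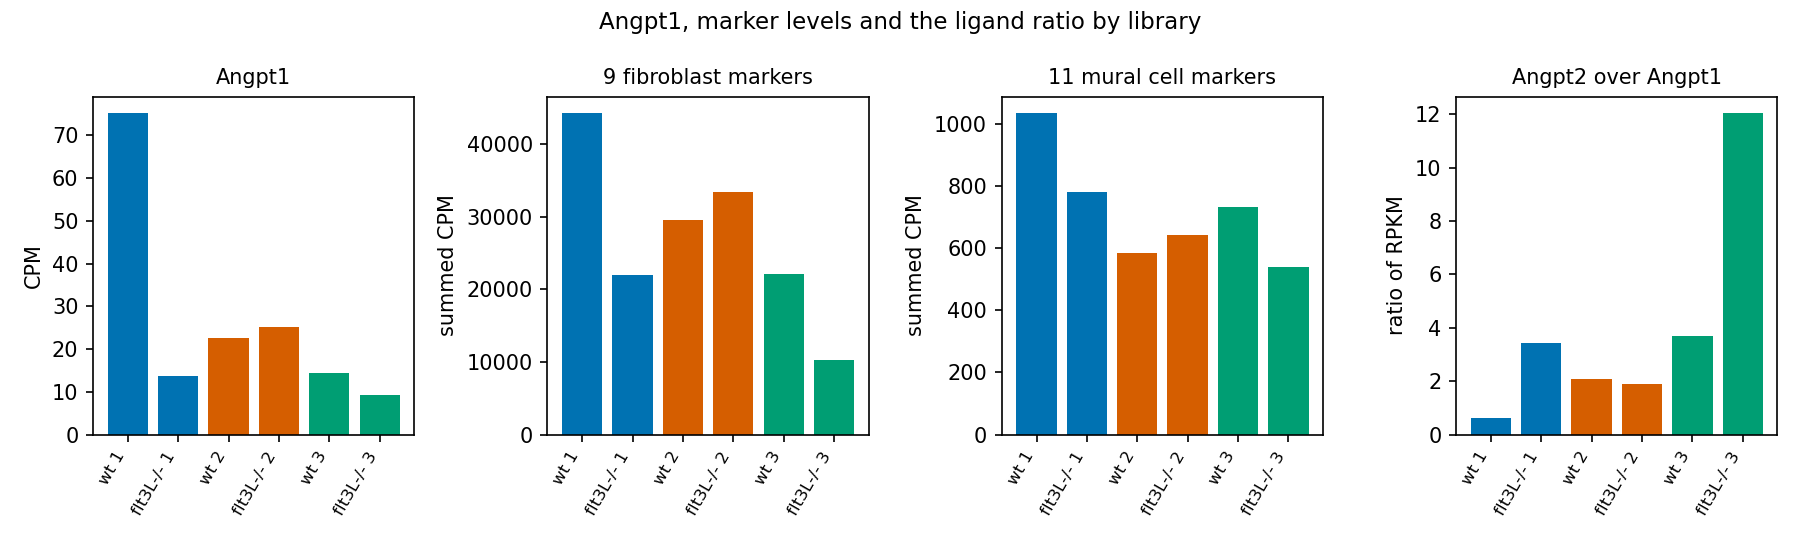
Bars, all from 0, of *Angpt1* (CPM), the summed level of the 9 fibroblast and 11 mural cell markers (CPM) and the RPKM ratio of *Angpt2* to *Angpt1* in each library, coloured by sorting date. The fibroblast sum falls from 44338 to 10206 CPM in the library order of *Angpt1*, and the ratio is highest, 12.1, in the flt3L-/- library of pair 3.

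Markers of other cells also varied between the libraries. The summed level of the 9 tested leukocyte markers was 173 to 2510 CPM in wt and 185 to 1300 CPM under the flt3L-/- label, with 0 of 9 at an unadjusted p under 0.05. The 6 lymphatic endothelial markers, which include *Flt4*, summed to 260 to 372 CPM and 185 to 381 CPM, with 0 of 6 passing. For cardiomyocytes 1 of 6 markers (*Tnni3*) passed an unadjusted p under 0.05, and for erythroid cells 1 of 5 (*Alas2*). Both were higher under the flt3L-/- label, as were 1.11% of all genes at this threshold. The cardiomyocyte markers summed to 103 to 152 CPM in wt and 158 to 191 CPM under the flt3L-/- label. The erythroid markers summed to 243 to 419 CPM in wt and 372 to 491 CPM under the flt3L-/- label. No tested marker of any list was at 0 in a library.

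The sorting date was also tested as a term of the fit. At an adjusted p under 0.05, 0 of the 5 genes and 0% of all genes were called by edgeR, and at an unadjusted p under 0.05, 0 of 5 against 8.28% of all genes. For the date, *Angpt2* had the smallest unadjusted value of the 5 (edgeR adjusted p = 0.623), followed by *Angpt1* (edgeR adjusted p = 0.634). The adjusted p of edgeR was 0.777 for *Tek*, 0.827 for *Ptprb* and 0.999 for *Tie1*.

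The other genes of the pathway were read from 7 lists with 83 genes, of which 76 were tested. At an adjusted p under 0.05 edgeR called 0 of the 76, and DESeq2 called 1, *Irs2*. At an unadjusted p under 0.05, 7 of the 76 passed (9.21%, beside 3.59% of all genes), 1 higher and 6 lower. All 7 come from the same 6 libraries, and the lists were chosen with earlier results of these data known. Their share is therefore no independent evidence. Of these 7, *Irs2* and *Itgav* are also on the list of changed genes that the study drew from these libraries. The study called them with edgeR's quasi-likelihood test and the date as a covariate. The fit here called 0 of all 13475 genes, and the source of this difference was not tested. The difference had the same sign in all 3 pairs for 18 of the 76 (23.7%), near the 25.7% of all genes. The median log2 fold change of the 76 was −0.07.

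The 15 genes closest to Tie2, its further ligand, its adaptors and PI3 kinase subunits, had a median log2 fold change of −0.07. *Nras*, a small GTPase, and *Shc1*, an adaptor of receptor kinases, were the most abundant per length. *Shc1* was 140 ± 10.9 CPM in wt and 138 ± 8.02 CPM (SD, n = 3 each) under the flt3L-/- label. *Dok2*, an adaptor that binds Tie2 and is also made by blood cells, had 6.45, 9.58 and 24.1 CPM in wt and 2.73, 6.87 and 2.53 CPM under the flt3L-/- label. It was lower in 3 of 3 pairs, although the groups overlapped, with a log2 difference in the fit of −1.62 (standard error 0.61, unadjusted p = 0.0465, edgeR adjusted p = 0.973). The leukocyte markers summed to 173, 928 and 2510 CPM in wt and 448, 1300.4 and 185 CPM under the flt3L-/- label. This sum ranked the 3 libraries of each group as *Dok2* did. Within pairs it was higher under the flt3L-/- label in pairs 1 and 2, unlike *Dok2*, and lower in pair 3. The part of leukocytes in the *Dok2* difference was not tested. *Angpt4*, the remaining angiopoietin, chosen after its values were seen, was present at 2.27 to 8.05 CPM in all 6 libraries, with a log2 fold change of −0.22 (standard error 0.36).

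Of the 18 effectors downstream of Tie2, 0 passed an unadjusted p under 0.05, and the median was −0.14. *Nos3*, which encodes endothelial nitric oxide synthase, was 542 ± 55.8 CPM in wt and 661 ± 144 CPM (SD, n = 3 each) under the flt3L-/- label, with a log2 fold change of 0.27 (standard error 0.16). *Klf2*, a factor induced by flow and by Tie2 signalling, had 413, 392 and 65.6 CPM in wt and 529, 127 and 84.7 CPM under the flt3L-/- label. Its level was high in both libraries of pair 1 and in the wt library of pair 2 and low in the other 3. Its sorting date term had an unadjusted p of 0.0171 (edgeR adjusted p = 0.598). *Foxo3*, a FoxO factor, had the smallest p of the list, with a log2 fold change of −0.42 (unadjusted p = 0.124 in edgeR).

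Among 13 targets of FoxO factors, 1 passed an unadjusted p under 0.05 with a higher level (*Pik3ip1*) and 2 with a lower one (*Irs2* and *Bcl6*), and the median was −0.06. *Irs2*, an adaptor of the insulin receptor, had 79.0, 47.5 and 20.2 CPM in wt and 43.2, 21.7 and 10.01 CPM under the flt3L-/- label. It was lower in 3 of 3 pairs by nearly the same factor while its level was also lower on each later date, so the groups overlapped. In the fit this was −1.004 on the log2 scale (standard error 0.14, unadjusted p = 0.00101, edgeR adjusted p = 0.973, DESeq2 adjusted p = 0.00218). *Pik3ip1*, an inhibitor of PI3 kinase, was 61.2 ± 12.7 CPM in wt and 82.2 ± 4.41 CPM under the flt3L-/- label (SD, n = 3 each), with an unadjusted p = 0.0294 in edgeR. *Bcl6*, a transcriptional repressor, was lower in 3 of 3 pairs, by −1.60, −0.07 and −1.24 on the log2 scale. The most abundant FoxO targets per length, *Txnip* and *Ccng2*, had log2 fold changes of 0.37 (standard error 0.29) and −0.05 (standard error 0.14).

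The angiopoietin-like genes encode secreted proteins that resemble angiopoietins but do not bind Tie2. Of 5 tested, 1 passed an unadjusted p under 0.05, and the median log2 fold change was −0.71. That gene, *Angptl1*, was 10.1 ± 1.02 CPM in wt and 5.85 ± 2.98 CPM (SD, n = 3 each) under the flt3L-/- label (log2 fold change −0.92, unadjusted p = 0.0461, edgeR adjusted p = 0.973). The most abundant, *Angptl2*, had 245, 162 and 94.1 CPM in wt and 75.2, 221 and 52.5 CPM under the flt3L-/- label. Its libraries had the same order as those of *Angpt1*, and so had those of *Angptl7*, 2 of the 5 genes in all. *Angptl2* differed by −0.71 (standard error 0.44) on the log2 scale. *Angptl4*, which encodes an inhibitor of lipoprotein lipase, had 56.6, 59.9 and 49.0 CPM in wt and 59.99, 32.6 and 101 CPM under the flt3L-/- label, and like *Angpt2* was highest in the flt3L-/- library of pair 3.

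Of 10 tested extracellular and junction partners, 1 passed an unadjusted p under 0.05, and the median was −0.22. *Itgav*, an integrin subunit, had 172, 106 and 44.6 CPM in wt and 129, 67.0 and 27.9 CPM under the flt3L-/- label (log2 fold change −0.58, standard error 0.13, unadjusted p = 0.00715, edgeR adjusted p = 0.973). *Kdr*, the VEGF receptor with which VE-PTP and Tie2 share endothelial junctions, had 2730 to 3883 CPM over the 6 libraries and a log2 fold change of −0.17 (standard error 0.20). *Itgb1*, an integrin subunit that can bind angiopoietins, differed by 0.12 (standard error 0.17). *Svep1*, whose product binds Tie1, had 11.04, 24.9 and 11.7 CPM in wt and 12.3, 18.2 and 0.396 CPM under the flt3L-/- label, and was chosen after its values were seen. The lowest value was again that of pair 3.

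Of the phosphatases related to VE-PTP, *Ptprj* had 1.66 to 14.7 CPM and *Ptpro* 0.117 to 4.21 CPM, the lower end of *Ptpro* being near the floor of 3 counts. Per length, *Ptprb* stood above both, with 76.4 to 130 RPKM over an exon length of 13333 bases, beside means of 0.891 RPKM for *Ptprj* and 0.212 RPKM for *Ptpro*. *Ptprj* differed by −0.48 on the log2 scale (standard error 0.46, edgeR adjusted p = 0.973).

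Of 13 tested transcription factors of the Tie genes, 1 passed an unadjusted p under 0.05, and the median log2 fold change was 0.08. *Ets1*, whose family recognises the cores marked in the promoters, was 1055 ± 17.7 CPM in wt and 954 ± 89.3 CPM (SD, n = 3 each) under the flt3L-/- label. Its log2 fold change was −0.15 (standard error 0.15). *Epas1*, which encodes HIF-2α, was 560 ± 43.8 CPM in wt and 565 ± 266 CPM (SD, n = 3 each) under the flt3L-/- label. *Gata3*, a GATA factor of endothelial cells and lymphocytes, had 33.6, 20.6 and 19.9 CPM in wt and 12.4, 18.7 and 11.2 CPM under the flt3L-/- label. The groups of *Gata3* did not overlap, a property of 6.45% of all genes that *Pik3ip1* and *Angptl1* of the other lists also had. The log2 difference of *Gata3* in the fit was −0.80 (standard error 0.29, unadjusted p = 0.0398, edgeR adjusted p = 0.973).

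The genes whose log2 CPM followed each member most closely over the 6 libraries were found by Pearson correlation, as a description. For *Tek* they were *Zfp444* (r = 0.991), *Farsb* (0.991) and *Zdhhc7* (0.988), and for *Tie1* they were *Phactr4* (0.994), *Trim25* (0.972) and *Ampd3* (0.970). *Angpt1* was followed by *Fam149a* (0.998), *Prss35* (0.995) and *Cadm1* (0.995), *Angpt2* by *Atp5j* (0.999), *Rtp4* (0.993) and *Olfr56* (0.991), and *Ptprb* by *Dgkd* (0.998), *Mtmr1* (0.992) and *Hmgxb3* (0.991). With 6 points and 13475 genes such values are common. Over all genes, the median of the lowest of a gene's 3 best correlations was 0.987. The libraries share dates and depth in these correlations, and *Prss35*, with 229 CPM in the wt library of pair 1 and 34.4 to 96.0 CPM in the other 5, was like *Angpt1* highest in that library.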

How the data were processed

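RNA of cardiac SP cells from 3 wt and 3 flt3L-/- sorts was sequenced. The authors deposited raw counts per gene without normalization. Per the methods of the study, libraries were made with the SMART-Seq v4 kit without strand, single reads of 81 bases were mapped to mm10 with STAR 2.5.2a with at most 10 hits per read, and reads starting in an exon of Ensembl release 88 were counted with qCount of QuasR 1.18.0. Reads with several equal hits were assigned at random, which can move reads between similar genes.

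The counts were analysed with edgeR 4.0.16 in R 4.3.3. Gene names, biotypes, positions and exon lengths came from GENCODE release M21 of GRCm38, which held 50376 of the 50600 genes. The filter kept 13475 protein-coding genes that exceeded 1 CPM in 2 or more libraries, and libraries were scaled by TMM. The model held genotype and sorting date (glmQLFit and glmQLFTest, legacy = TRUE, common dispersion 0.0978, 2.79 prior and 2 residual degrees of freedom). The standard error is the log2 fold change divided by the root of F, 95% intervals used the total degrees of freedom of the fit, and differences by pair were taken after adding a prior count of 2. RPKM was computed from CPM and the union of exons. Relative levels were tested with exact permutations within dates.

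The pairing comes from the sorting dates in the labels. After removal of group means, same-date libraries correlated at 0.180, 0.104 and 0.116 across genes, against −0.354 to 0.247 between dates. No library was a copy of another, since the chi-square per degree of freedom between any 2 libraries was at least 42.6. Scripts were tested on simulated data.

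The members and all gene and marker lists were chosen with earlier results of these data known. The genes named are the 5 members, the 2 genes with the highest mean RPKM and the 1 with the smallest p of each list, *Vwf*, *Pecam1*, *Kdr* and *Flt3l*, and the 3 genes most correlated with each member. A part of these is given, and marker genes and genes that passed the unadjusted test were also named to identify counts. Alternatives were other normalizations (DESeq2 size factors, library size), DESeq2 1.42.0, legacy = FALSE, other gene filters, all biotypes, no date term, another pseudocount, marker summary or gene length, and each pair left out.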

Additional observations from a re-analysis of the deposited data

How the results depend on the processing

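No alternative gave an adjusted p under 0.05 for any of the 5 genes. The lowest adjusted p over all alternatives was 0.592 for *Angpt1*, 0.814 for *Angpt2*, 0.919 for *Ptprb*, 0.787 for *Tek* and 0.887 for *Tie1*. While all libraries were kept, the log2 fold change ranged from −1.22 to −0.95 for *Angpt1*, 0.35 to 0.51 for *Angpt2*, −0.26 to −0.18 for *Ptprb*, 0.11 to 0.15 for *Tek* and 0.09 to 0.14 for *Tie1*.

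With 1 pair left out, the log2 fold change was −1.57 to −0.23 for *Angpt1*, 0.03 to 0.57 for *Angpt2*, −0.54 to −0.07 for *Ptprb*, 0.02 to 0.37 for *Tek* and −0.084 to 0.28 for *Tie1*, which reversed without pair 1 (−0.084). Relative to the endothelial markers, the difference was −0.075 to 0.11 for *Tek* (−0.075 without pair 3), −0.036 to 0.078 for *Tie1* (−0.036 without pair 1) and −0.071 to 0.61 for *Angpt2* (−0.071 without pair 3). The log2 ratio of *Angpt2* to *Angpt1* differed by 0.80 to 2.10. The median log2 fold change of the angiopoietin-like genes was −1.23 (without pair 2) to −0.20 (without pair 1), that of the FoxO targets −0.19 to 0.04, that of the related phosphatases −1.04 to 0.65, that of the downstream effectors −0.27 to 0.08 and that of the transcription factors −0.09 to 0.22. Over all genes, 0 passed the adjusted threshold for genotype and 249 (without pair 3) to 980 (without pair 2) the unadjusted one, against 484 with all pairs. For the sorting date, 0 to 112 genes (112 without pair 2) passed the adjusted threshold and 699 (without pair 3) to 1887 (without pair 2) the unadjusted one, against 1116 with all pairs. The cause of these shifts was not tested.

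DESeq2 called 21 genes for genotype (6 higher and 15 lower), 403 for the sorting date and 1 pathway gene. Without the replicate block of the sorting date, 262 genes passed the unadjusted threshold, and no call of the 5 genes changed. With the longest transcript as length, *Tie1* had 238 RPKM in place of 205, and the order of the means was the same, but *Tek* exceeded *Ptprb* in 4 of 6 libraries in place of 6 of 6. After removal of the date means, 0 of the 3 most correlated genes were shared for *Tek*, *Tie1*, *Angpt1* and *Angpt2*, and 1 of 3 for *Ptprb*. Depth does not limit the receptors, which had at least 12958 counts per library, whereas *Angpt1* had as few as 236 counts.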

Other observations

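Several genes near the Tie2 pathway, chosen after their values were seen, were high in both libraries of pair 1, low in both of pair 3 and split in pair 2. *Foxo1*, the FoxO factor best known in endothelial cells, had 50.5 and 72.3 CPM in the wt and the flt3L-/- library of pair 1, 89.6 CPM in the wt library of pair 2, and 19.6, 10.95 and 16.0 CPM in the flt3L-/- library of pair 2 and the wt and flt3L-/- libraries of pair 3. *Rac1*, a GTPase of the cytoskeleton, had 384, 698 and 599 CPM in the former 3 libraries and 153, 87.6 and 134 CPM in the latter. *Map3k3*, a kinase upstream of *Klf2*, had 102, 191 and 137 CPM against 47.5, 30.0 and 50.3 CPM. *Cited2*, a FoxO target, had 67.9, 90.7 and 92.7 CPM against 24.9, 12.4 and 15.6 CPM. *Klf2* itself had 413, 529 and 392 CPM against 127, 65.6 and 84.7 CPM. Because these genes were picked by these values, a test of the date term on them adds no support. The share of all genes with this division of the libraries was not counted. None of the 5 members divided the libraries in this way.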
